A study of Homo sapiens with 4 samples.

Results

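The immediate early and AP-1 genes were followed in Hep3B cells in which UNC50 had been knocked down. The set holds 10 genes, FOS, FOSB, FOSL1, FOSL2, JUN, JUNB, JUND, EGR1, IER2 and MYC, taken by gene name from the annotation that the scanner software attached to each probe. Each gene had 1 probe, so that the 10 genes rested on 10 of the 42405 probes other than controls, and all 10 probes passed the filter on dim signals that left 25148 genes. The rule itself reads the gene name only and no measured value, although the set was proposed with earlier results of these data known.

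Hep3B is a human hepatocellular carcinoma cell line, and UNC50 is a membrane protein of the Golgi apparatus. The study asked which genes depend on UNC50 in these cells, with the EGFR pathway as its main subject. The cells carried a pLKO.1 plasmid for a mock hairpin (shR-MOCK, 1 array) or for 1 of 3 hairpins that target UNC50 mRNA, named shR-467, shR-554 and shR-749 (each with its own array). They were transfected with Lipofectamine and were purified with 1 µg/ml puromycin. Total RNA was labelled with the dye Cy3 and hybridised to Agilent arrays with probes of 60 bases. Puromycin and the plasmid backbone were common to all 4 cultures. As the hairpins differ in sequence yet serve here as the replicates of the knockdown group, their spread holds effects of single hairpins as well as of culture and array. The control was 1 array, so nothing is known of how control cultures vary.

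The FOS, FOSB, FOSL1 and FOSL2 proteins pair with JUN, JUNB or JUND to form AP-1, a transcription factor that binds a short palindromic site in the promoters and enhancers of genes for growth, invasion and stress. FOS, JUNB, EGR1 and IER2 are immediate early genes, transcribed within minutes of a growth factor signal through ERK and the serum response factor and without new protein synthesis, and their mRNAs are short-lived. MYC responds to the same signals and drives ribosome production, metabolism and entry into the cell cycle. In liver, JUN and FOS are induced early in regeneration, and MYC is a common oncogene of hepatocellular carcinoma.

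Signals below are the background-subtracted scanner signals scaled so that every array has the 75th percentile of the shR-MOCK array, and differences are log2 values against shR-MOCK. The unscaled percentiles ran from 978 to 1390, and the share of spots well above background was 67.6% to 73.6%. UNC50 stood at 5010 with shR-MOCK and at 1202.5 (shR-467), 687 (shR-554) and 939 (shR-749), a mean difference of -2.45 ± 0.40 (SD, n = 3 hairpins). The adjusted limma p of UNC50 was 0.612. In bulk RNA, fewer cells of a type and less RNA per cell cannot be told apart. All 8 hepatocyte markers were well above background on the 4 arrays and had a mean difference above 0, from 0.16 for SERPINA1 to 1.75 ± 1.02 for the fibrinogen chain FGB. Of 8 markers of blood, endothelial, stromal and bile duct cells, 5 were kept, with mean differences from -0.26 to 0.27, and COL1A1, COL3A1 and ACTA2 did not pass the filter. Without shR-467, 1 of these 5 was lower by 1.5-fold on average. The part of the hepatocyte markers in the results below was not tested.

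None of the 10 genes moved in one direction by 1.5-fold across the hairpins. On average over the hairpins, 0 of 10 were at least 1.5-fold higher, where 2.28% of the 25148 genes were, and 0 of 10 were at least 1.5-fold lower, where 7.69% of all genes were. With every hairpin, 0 of 10 passed 1.5-fold upwards against 0.537% of all genes, and 0 of 10 passed it downwards against 1.23%. The filter also keeps genes that are bright with shR-MOCK alone, and the shares of lower genes include these. All 10 genes passed a stricter filter, which asks for probes well above background on all arrays. Under it, 629 of 21497 genes were lower on average and 503 higher. With every hairpin, 102 were lower and 122 higher. The shares given for the lists below are those of the main filter. At background shares of this size, a list of 10 genes holds few or no such genes, and the zero counts say little about the list. Limma called 0 of 10 at an adjusted p under 0.05, as it called 0% of all genes. The unadjusted limma p of the 10 ran from 0.349 for MYC to 0.973 for IER2, so that 0 of the 10 also passed 0.05 before adjustment, where 381 of all genes did. An exact permutation test of 1 array against 3 cannot give a p below 0.25.

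**Figure D1:**
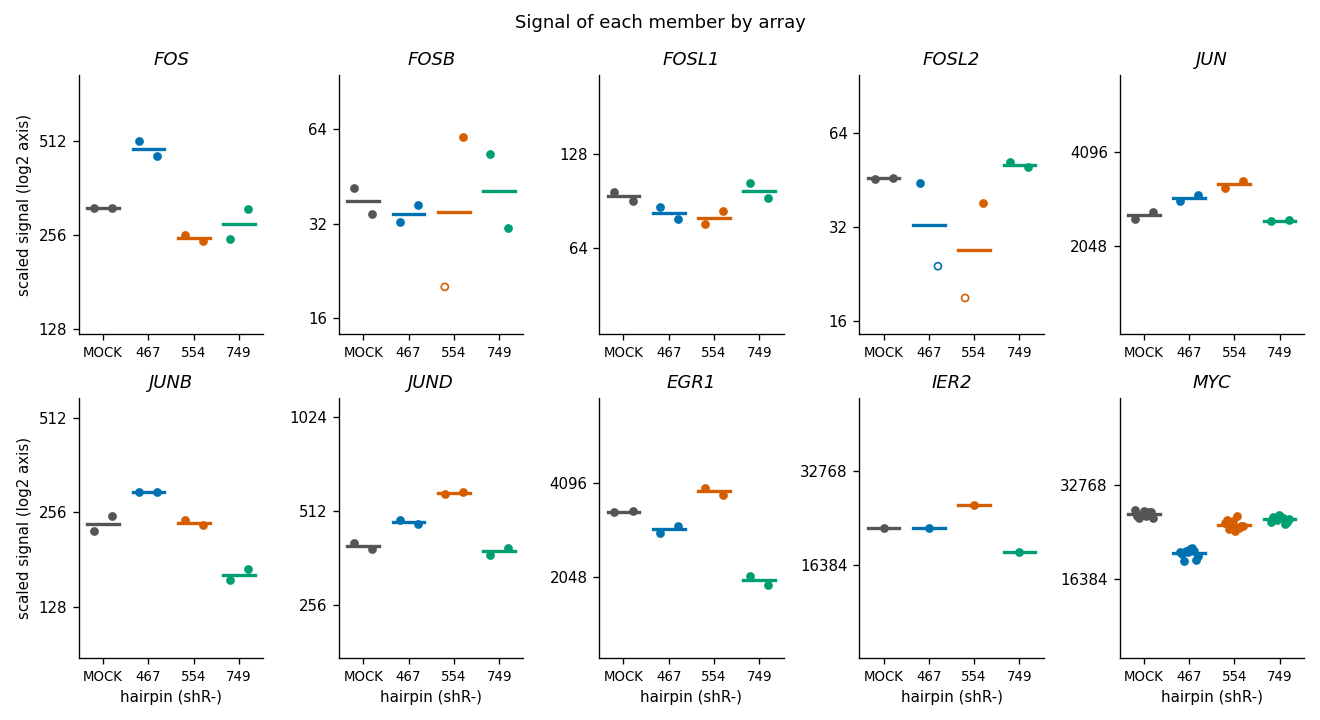
Scaled signal of each of the 10 genes (vertical axes, log2 scale, every panel spanning the same fold range) on the 4 arrays (horizontal axes, hairpin name). Each point is a spot, open where it was not well above background, and each line is the array's mean of log2 signals. FOS stood at 483 with shR-467 against 313 with shR-MOCK, EGR1 at 1996 with shR-749 against 3315, and the spots of FOSB and FOSL2 on shR-554 lay far apart.

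In the FOS family, FOS itself was high on the shR-467 array and low on the other knockdown arrays. FOS encodes the classical partner of JUN, and its probe lies at chromosome 14, 75748214 to 75748273 (build hg19, as for all probe positions here). Its scaled signal was 313 with shR-MOCK against 483 (shR-467), 251 (shR-554) and 278 (shR-749). Mock thus lay inside the range of the hairpins, which stood at 154%, 80.2% and 88.9% of it. The log2 differences were 0.63, -0.32 and -0.17, with a mean of 0.05 ± 0.51 (SD, n = 3 hairpins). The gap between shR-467 and shR-554 was 0.95, while the standard error from the spots of a probe was 0.08, 0.03 and 0.16 for the 3 differences. The spots of an array were thus closer to each other than shR-467 was to the other hairpins. The difference of shR-554 from shR-749 was -0.15, smaller in size than the spot standard error of 0.16 for shR-749. Limma's 95% confidence interval of the mean ran from -0.91 to 1.00 on the log2 scale.

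FOSB, a FOS relative known in neurons for a long-lived truncated form, was close to background on every array. Its probe at chromosome 19, 45978205 to 45978264, gave scaled signals of 37.7 with shR-MOCK against 34.4 (shR-467), 34.8 (shR-554) and 40.6 (shR-749). Its spots on shR-554 had unscaled signals of 24.9 and 75.1, and only the brighter of them was well above background. The mean difference was -0.05 ± 0.13 (SD, n = 3 hairpins), and it turned to 0.03 with quantile normalization, 0.05 with normexp background correction and 0.02 in the authors' processed values. FOSB thus had no settled direction. The range between its hairpins was 0.24, and the spot standard errors of its differences were 0.17 (shR-467), 0.81 (shR-554) and 0.42 (shR-749).

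FOSL1, also called FRA1 and associated with invasive tumours, gave 93.6 with shR-MOCK against 82.7 (shR-467), 80.0 (shR-554) and 97.7 (shR-749) from its probe at chromosome 11, 65660098 to 65660157. The hairpins lay on both sides of the mock array. The mean difference was -0.11 ± 0.15 (SD, n = 3 hairpins), with limma's 95% interval from 1.94-fold lower to 1.66-fold higher.

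FOSL2, or FRA2, had the lowest mean of the 10. The signal of its probe at chromosome 2, 28637175 to 28637234, was 45.7 with shR-MOCK against 32.5 (shR-467), 26.9 (shR-554) and 50.6 (shR-749). It was lower with 2 hairpins and higher with the other. On both arrays where it was lower, only 1 of its 2 spots was well above background, and the spot standard error of the difference was 0.44 with shR-467 and 0.51 with shR-554, against 0.03 with shR-749. The mean difference was -0.37 ± 0.47 (SD, n = 3 hairpins), with limma's 95% interval from 3.25-fold lower to 1.95-fold higher. The value with shR-554 was -0.76 on the 75th percentile scale, -0.43 after quantile normalization and -0.20 after normexp correction. Without shR-749 the mean was -0.63, past 1.5-fold.

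FOSL2 was also the member whose promoter held the AP-1 site TGAGTCA, searched on both strands from 250 bases before to 50 bases after the start of transcription. Of the 10 genes, 8 were in the promoter table of RefSeq on GRCh38.p14, without FOSL1 and MYC, and 1 of the 8 held this site, as 4.95% of all 35116 promoters did. The surrounding stretch is shown because FOSL2 encodes a subunit of the factor that binds this site. The site, on the opposite strand, is in capitals and begins 4 bases after the start in chr2:28392851-28392880, plus strand.
FOSL2: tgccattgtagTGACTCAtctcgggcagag

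The JUN family differed more between hairpins than from the mock array as a group. JUN, the founding AP-1 subunit and a target of the JNK kinases, was measured at chromosome 1, 59246511 to 59246570. It gave 2569 with shR-MOCK against 2925 (shR-467), 3230.1 (shR-554) and 2473 (shR-749), so 2 hairpins were higher and the other slightly lower. The differences were 0.19, 0.33 and -0.06 with a mean of 0.15 ± 0.19 (SD, n = 3 hairpins). Limma's 95% interval ran from 1.30-fold lower to 1.61-fold higher.

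JUNB, which restrains the growth-promoting action of JUN in many cells, spread around the mock array. Its probe at chromosome 19, 12902998 to 12903057, gave 236 with shR-MOCK against 298 (shR-467), 238 (shR-554) and 162 (shR-749). With shR-467 the signal was 126% of mock and with shR-749 it was 68.7%. The differences were 0.34, 0.01 and -0.54, of which the middle one turned to -0.07 with normexp correction and -0.01 in the authors' values, and their mean was -0.06 ± 0.44 (SD, n = 3 hairpins). The gap between shR-467 and shR-749 was 0.88, with spot standard errors of the differences from 0.08 to 0.10.

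JUND, the most steadily expressed of the JUN genes in resting cells, had the highest mean of the 10. Its probe at chromosome 19, 18391371 to 18391430, gave 394 with shR-MOCK against 472 (shR-467), 582 (shR-554) and 380.0 (shR-749). With shR-554 the signal was 148% of mock, just inside 1.5-fold at a log2 difference of 0.56, and past it at 0.60 when arrays were scaled by their median. The mean difference was 0.26 ± 0.31 (SD, n = 3 hairpins), with limma's 95% interval from 1.38-fold lower to 1.97-fold higher.

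JUND and JUNB are intronless genes of closely related proteins, and their probes are shown because each signal above is that of these letters alone. Both lie in coding sequence, the JUND probe in the part for the leucine zipper by which AP-1 subunits pair. The letters are those of the array annotation, 5′ to 3′ along the mRNA, at the hg19 positions given above, on the plus strand for JUNB and the minus strand for JUND.
JUNB probe: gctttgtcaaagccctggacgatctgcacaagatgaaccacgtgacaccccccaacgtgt
JUND probe: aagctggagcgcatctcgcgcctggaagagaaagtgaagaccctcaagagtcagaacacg

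The promoter of JUND held the cyclic AMP element TGACGTCA, a palindrome that dimers of JUN and ATF2 and the factor CREB1 bind, and was the only 1 of the 8 promoters to do so, against 1.85% of all promoters. The element begins 200 bases before the start and is in capitals in chr19:18281789-18281848 of GRCh38.p14, minus strand.
JUND promoter: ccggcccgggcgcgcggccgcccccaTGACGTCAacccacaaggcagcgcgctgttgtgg

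EGR1 was low on the shR-749 array and closer to mock on the others. It encodes a zinc finger factor of the growth factor response, and it is a standard readout of ERK signalling through the serum response factor. Its probe at chromosome 5, 137804891 to 137804950, gave 3315 with shR-MOCK against 2908 (shR-467), 3842 (shR-554) and 1996 (shR-749). With shR-749 EGR1 stood at 60.2% of mock, and with shR-554 at 116%. The differences were -0.19, 0.21 and -0.73 with a mean of -0.24 ± 0.47 (SD, n = 3 hairpins), and limma's 95% interval ran from -1.06 to 0.59. The gap of 0.94 between shR-554 and shR-749 does not involve the mock array. It was far above the log2 SD of the EGR1 spots, 0.05 on shR-554 and 0.07 on shR-749. Spots of 1 array do not measure the spread between cultures. Without shR-749 the mean was 0.01.

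The promoter of EGR1 was the only 1 of the 8 with a CArG box, the serum response element that is its best known input, and 1.29% of all promoters held one. It held 2 boxes, which begin 105 and 83 bases before the start and are in capitals in chr5:138465349-138465428 of GRCh38.p14, plus strand. The search ended 250 bases before and 50 bases after the start, so sites farther from any of the 8 genes were not seen. No binding was measured in these cells. The E-box CACGTG and the EGR1 site GCGTGGGCG were in 0 of the 8 promoters, against 7.26% and 0.794% of all promoters.
EGR1 promoter: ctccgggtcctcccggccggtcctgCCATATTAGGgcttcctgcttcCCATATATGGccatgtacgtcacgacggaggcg

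IER2, a small nuclear protein induced with FOS and EGR1, was bright on all arrays. Its probe of 1 spot gave 21600 with shR-MOCK against 21530 (shR-467), 25542 (shR-554) and 18039 (shR-749). Its annotated place on the array is chromosome 9, 6037938 to 6037997, which is another chromosome than that of IER2 in RefSeq, so the identity of the signal rests on the annotated gene name. The hairpin order was that of EGR1, highest with shR-554 and lowest with shR-749. The mean difference was -0.01 ± 0.25 (SD, n = 3 hairpins), which turned to 0.02 with quantile normalization and 0.01 in the authors' values, and limma's 95% interval ran from 1.44-fold lower to 1.42-fold higher.

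**Figure D2:**
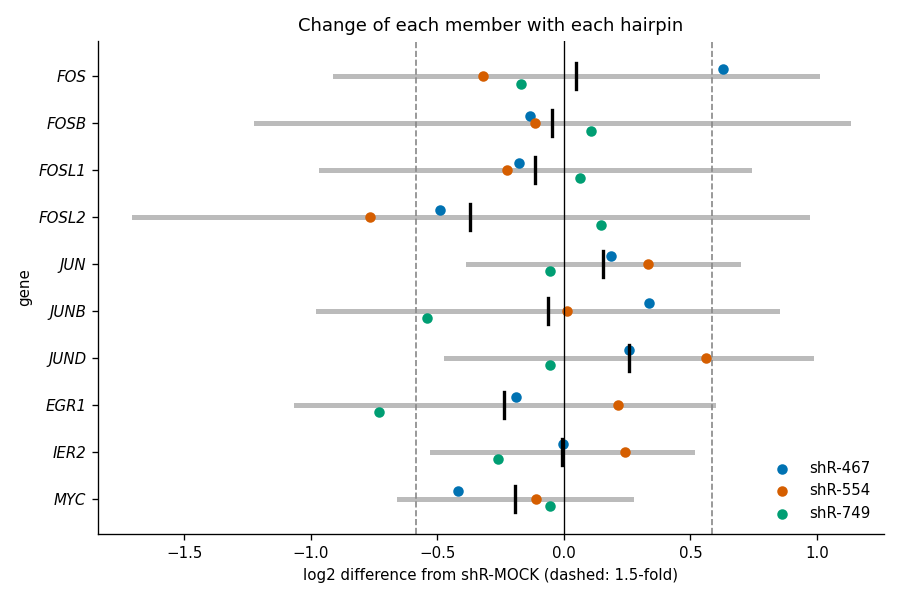
Log2 difference from shR-MOCK (horizontal axis) of each of the 10 genes (vertical axis). Coloured points are the hairpins, black bars their mean, grey bars limma's 95% confidence interval and dashed lines 1.5-fold. Every interval includes 0, and 3 points lie past 1.5-fold, namely FOS with shR-467, FOSL2 with shR-554 and EGR1 with shR-749.

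MYC was the only 1 of the 10 whose signal was on the same side of the mock array with all 3 hairpins, and with shR-749 it changed side under 3 of the other scalings. Its probe, at chromosome 8, 128753268 to 128753327, was printed in 10 spots, of which 9 were used on the mock array, and gave 26516 with shR-MOCK against 19848 (shR-467), 24539 (shR-554) and 25548 (shR-749). Among the hairpins shR-467 was the low one, at 74.9% of mock, whereas the others were at 92.5% and 96.3%. The differences were -0.42, -0.11 and -0.05, and the last turned to 0.05 with quantile normalization, 0.03 with normexp correction and 0.04 in the authors' values. The spots of MYC on 1 array had an SD of 0.03 to 0.05, and the spot standard error of a difference was at most 0.02. The mean difference was -0.19 ± 0.20 (SD, n = 3 hairpins). Limma's 95% interval was the narrowest of the 10 and ran from 1.57-fold lower to 1.20-fold higher, with an unadjusted limma p of 0.349 and an adjusted p of 1.00.

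Taken hairpin by hairpin, 1 gene passed 1.5-fold with each. With shR-467 it was FOS, 1 of 10 higher against 7.29% of all genes, and 0 of 10 were lower against 6.77%. With shR-554 it was FOSL2, 1 of 10 lower against 16.0% of all genes, and 0 of 10 were higher against 4.41%. With shR-749 it was EGR1, 1 of 10 lower against 10.4% of all genes, and 0 of 10 were higher against 5.40%. Each of these shares of 10 genes is near its background. EGR1 with shR-749 kept a difference of -0.68 to -0.73 under every scaling tried. FOS with shR-467 came to 0.58 with median scaling and 0.52 with normexp correction, just under the line of 0.585, and FOSL2 with shR-554 fell short of it with quantile normalization, normexp correction and the authors' values. With quantile normalization FOSL2 passed it with shR-467 instead, at -0.65, and with median scaling JUND passed it with shR-554.

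The order of the hairpins differed between groups of the 10 genes. EGR1, IER2, JUN and JUND had the same order, highest with shR-554, then shR-467, and lowest with shR-749. FOS and JUNB were highest with shR-467, and JUNB was also lowest with shR-749. FOSB, FOSL1, FOSL2 and MYC were highest with shR-749. The SD between hairpins had a median of 0.28 over the 10 genes and of 0.25 over all genes, whose quartiles were 0.15 and 0.43. The mean difference had a median of -0.06 over the 10, with 3 above 0 and 7 below, and of -0.03 over all genes.

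**Figure D3:**
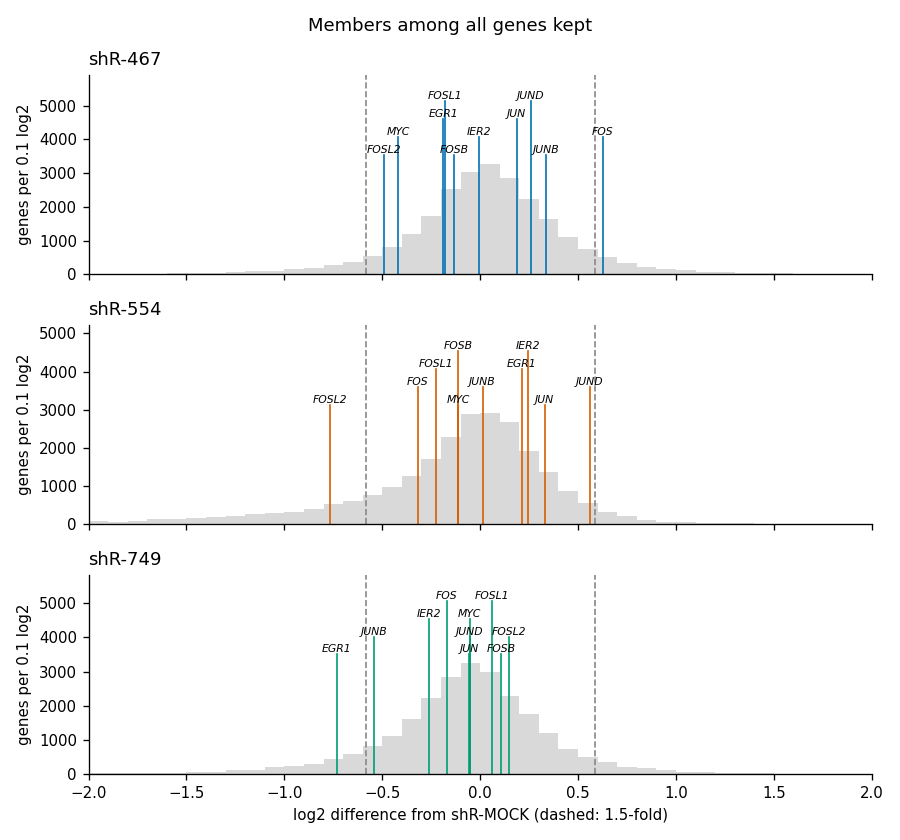
Log2 difference from shR-MOCK (horizontal axis) of all 25148 genes (grey bars, number per 0.1 log2 on the vertical axis) and of the 10 genes (coloured lines of arbitrary height) with each hairpin. Dashed lines mark 1.5-fold. The 10 genes lie within the bulk of all genes, with 1 of 10 past 1.5-fold in each panel.

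The other subunits that pair with these proteins lay on both sides of the mock level. Of 13 further AP-1 partners of the ATF, BATF, MAF and JDP families, 12 were kept and 0 passed 1.5-fold on average in either direction, against 2.28% of all genes higher and 7.69% lower, so that a count of 0 of 12 says little. They had a median mean difference of 0.06 and a range from -0.29 to 0.47. The top of that range was JDP2, a repressor that pairs with JUN, named here after its values were seen. It gave 426 with shR-MOCK against 532 (shR-467), 337 (shR-554) and 1139 (shR-749), high on 1 array only. Without shR-554, 1 of the 12 passed 1.5-fold upwards on average.

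Among 31 other immediate early genes, 25 were kept, and 0 were higher and 4 lower by 1.5-fold on average, against 2.28% and 7.69% of all genes. All 25 were well above background in both groups. Among genes with probes well above background on all arrays, 629 of 21497 were lower on average and 503 higher. The median of the 25 was -0.19, with 7 above 0 and 18 below. NR4A3, an orphan nuclear receptor, was the 1 gene lower with every hairpin, where 1.23% of all genes were. It gave 58.5 with shR-MOCK against 31.8 (shR-467), 29.0 (shR-554) and 37.7 (shR-749), so the mock array stood above all 3 hairpins. Its mean difference was -0.84 ± 0.19 (SD, n = 3 hairpins), and -0.30 with normexp correction, which ends its place past 1.5-fold.

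The remaining genes of the 4 are given with their values already known. CTGF, a matricellular target of YAP as well as of serum, had a mean of -0.70 ± 0.18, CYR61 of the same family -0.60 ± 0.39, and the factor KLF4 -0.59 ± 0.21 (SD, n = 3 hairpins). The count of 4 lower on average was 3 with quantile normalization and in the authors' values, 1 with normexp correction and 0 at 2-fold. It was 5 with no filter on dim probes, without shR-467 and without shR-749. DUSP1, a phosphatase that switches off MAP kinases, had the highest mean of the list at 0.35 ± 0.30. EGR2, EGR3, EGR4, NR4A1, ARC and PTGS2 did not pass the filter on dim signals. The adjusted limma p of each of the 25 was 1.00.

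Upstream of AP-1, 20 of 21 MAP kinases, kinases activated by them and transcription factors of the serum response were kept, with 1 higher and 1 lower by 1.5-fold on average, against 2.28% and 7.69% of all genes. The median was -0.05, and -0.01 over the 19 genes that were well above background in both groups, without RPS6KA3. RPS6KA5, also called MSK1, a kinase that phosphorylates CREB1 and histone H3 at immediate early genes, was lower with every hairpin, as 1.23% of all genes were. It gave 677 with shR-MOCK against 369 (shR-467), 290 (shR-554) and 384 (shR-749), a mean difference of -0.97 ± 0.22 (SD, n = 3 hairpins) that stayed between -1.05 and -0.85 under the alternatives. The gene that was higher, named after its values were seen, was MAPK9, or JNK2, which phosphorylates JUN. It gave 365 with shR-MOCK against 690 (shR-467), 601 (shR-554) and 533 (shR-749), and its mean of 0.73 ± 0.19 fell below 1.5-fold when all its probes were averaged. Without shR-467, 2 of the 20 were lower by 1.5-fold on average, RPS6KA5 and RPS6KA3. RPS6KA3, named after its values were seen, had differences of -1.29 with shR-554 and -0.61 with shR-749. It stood clear of background on 1 array only, so its change is known only as a bound.

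Downstream, 17 of 21 genes listed as AP-1 targets were kept, with 1 higher and 5 lower by 1.5-fold on average, against 2.28% and 7.69% of all genes. MMP1 and IL6 were well above background on the mock array alone and passed the filter through it, so their change is known only as a bound. The other 15 had a median of -0.33, with 4 above 0 and 11 below, and hold all of the genes past 1.5-fold. For comparison with these 15, probes well above background on all arrays gave 629 of 21497 genes lower on average and 503 higher. CCND1, cyclin D1 of the G1 phase, and MMP7, a matrix protease, were lower with every hairpin, where 1.23% of all genes were. The study named both from these samples, so their direction here is not independent evidence. It also measured both by real-time PCR in knockdown and overexpression cells, and cyclin D1 protein by western blotting. CCND1 gave 466 with shR-MOCK against 248 (shR-467), 145 (shR-554) and 185 (shR-749), a mean of -1.31 ± 0.39 (SD, n = 3 hairpins). MMP7 gave 267 with shR-MOCK against 106.6 (shR-467), 99.5 (shR-554) and 121 (shR-749), a mean of -1.29 ± 0.15. The size depended on the processing. In the authors' processed values the mean was -1.53 for CCND1 and -1.43 for MMP7, and with normexp correction -1.05 and -0.92. Both genes were lower on all 3 knockdown arrays. The mRNAs of FOS, JUN and their relatives had no common direction on the same arrays. AP-1 protein and binding were not measured on them, and any part of AP-1 in these values was not tested.

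The remaining targets past 1.5-fold are also given with their values already known. The chemokine IL8 had differences of -1.85, -0.50 and -2.34, the urokinase PLAU of -0.31, -1.66 and -0.84, and osteopontin, SPP1, of -0.47, -2.04 and 0.75. HMOX1, heme oxygenase 1, was higher with 2 hairpins and not the other, with 1.45, -0.13 and 1.00. Without shR-554, 3 of the 17 rather than 5 were lower on average, and the count of higher genes was 0 without shR-467 and 2 without shR-749. Hepatocyte markers were higher on the same arrays, with 4 of 8 past 1.5-fold on average and APOA1, TTR and FGB past it with every hairpin, and their part in the target genes' values was not tested. MMP3, MMP10, MMP13 and IVL did not pass the filter.

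Around MYC, 0 of 12 genes of its network and 0 of 28 listed targets passed 1.5-fold on average over the 3 hairpins, against 2.28% of all genes higher and 7.69% lower. All 12 genes of the MYC and MAX network were kept, with a median of 0.06 and a range from -0.32 for the MYC antagonist MXI1 to 0.31 for MYCL1. All 28 genes listed as MYC targets were kept, with 7 above 0, 21 below, a median of -0.04 and a range from -0.42 to 0.18. The lowest was the translation factor EIF4A1, and without shR-554 1 of the 28 was lower by 1.5-fold on average. Of 10 heat shock genes, measured as a general stress response, 0 passed 1.5-fold, with means from -0.19 to 0.07.

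**Figure D4:**
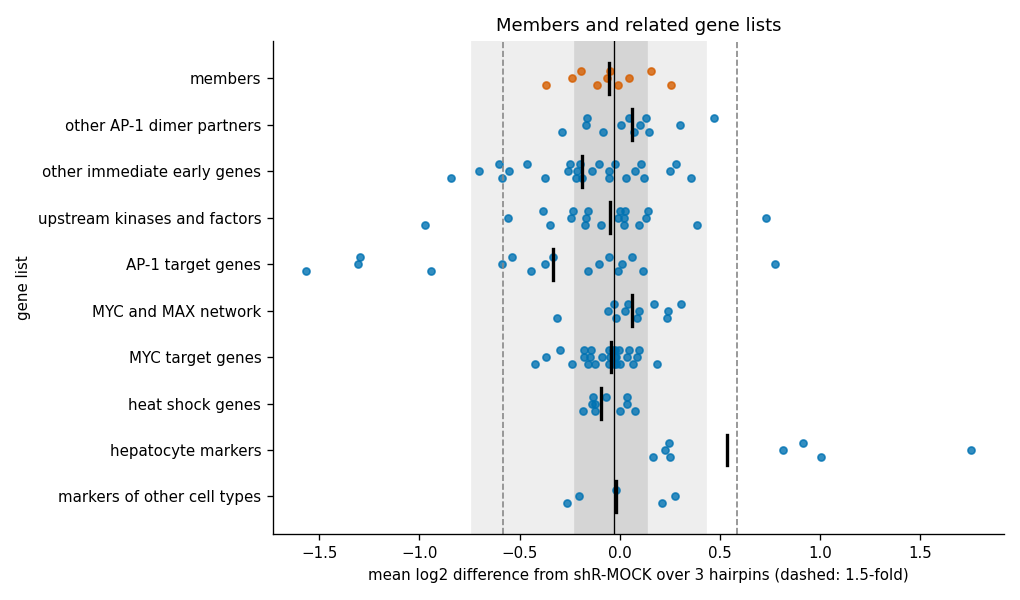
Mean log2 difference from shR-MOCK over the 3 hairpins (horizontal axis) of each kept gene in 10 lists (vertical axis). Points are genes, black bars list medians, the dark and light bands the middle 50% and middle 90% of all 25148 genes, the thin line their median and dashed lines 1.5-fold. The 10 genes, in orange, lie between -0.37 and 0.26, while 5 of 17 AP-1 target genes lie below 1.5-fold and 4 of 8 hepatocyte markers above it.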

How the data were processed

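For each of the 4 arrays the authors deposited spot intensity values from Agilent Feature Extraction 10.7.1.1, with the background already subtracted in the processed signal, and a table of processed log2 values. Set against the scanner output, that deposited log2 table differed from recomputed quantile-normalized means by a median of 0.00112. The array annotation gives gene names, some of them old, and probe positions on hg19.

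Processed signals were converted to log2 values, and each array was centred on its 75th percentile, computed without control spots. Spots marked as outliers, 254 to 466 per array, were left out, as were 5 probes with only such spots on an array, and no spot was saturated. Spots of a probe were averaged, and a probe counted as well above background where at least 50% of its spots were. Probes well above background on shR-MOCK or on all 3 knockdown arrays were kept, and a gene was read from its brightest kept probe. Signals over the lowest signal well above background, 21.2 to 28.3 by array, and the number of arrays limit the precision.

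Groups came from the sample labels. Differences were tested in limma 3.58.1 (R 4.3.3; lmFit and eBayes with trend, Benjamini-Hochberg over 25148 genes) with 2 residual and 4.98 prior degrees of freedom. The fit takes the spread of the 1 mock array to equal that of the hairpins, and since nothing in the labels says how many cultures each hairpin had, p-values measure only the spread between these arrays. A 1.5-fold rule after the study's methods was applied on average and with every hairpin. The methods' t-test called 646 genes unadjusted at 0.05 and 0 after Benjamini-Hochberg adjustment.

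The 10 genes and all gene lists were chosen with earlier results of these data known. Beside the 10 genes and UNC50, the text names the genes of a list that passed 1.5-fold with every hairpin, and others are marked as named after their values were seen or stand at the ends of a range. No genes of like pattern are named, as 4 arrays are too few for a correlation. Motifs were searched in RefSeq promoter windows of GRCh38.p14, for the 10 genes without chromosome 8, where MYC lies. The steps were tested on simulated data with 200 of 25148 genes changed 4-fold in the comparison of 1 mock array with 3. There 199 passed 1.5-fold, and limma called 0 of the 200. Python 3.11.15, numpy 2.4.6, pandas 2.3.3 and scipy 1.17.1 were used.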

Additional observations from a re-analysis of the deposited data

How the results depend on the processing

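The counts of the 10 genes past 1.5-fold on average or with every hairpin were 0 under each alternative, except that without shR-749 FOSL2 was lower on average, so that leaving out a hairpin gave 0 to 1. Of 120 alternative values of the 10 genes' mean differences, 9 had the opposite sign. These were FOSB with quantile normalization (0.029), normexp correction (0.049) and the authors' values (0.022), IER2 with quantile normalization (0.017) and the authors' values (0.011), and 1 each from leaving out a hairpin. Leaving out hairpins in turn gave FOS -0.24 to 0.23, JUNB -0.26 to 0.17, EGR1 -0.46 to 0.012 and IER2 -0.13 to 0.12. The smallest adjusted p of a member in limma was 1.00 under every alternative.

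The counts over all genes depended more on the processing. Genes higher on average numbered 574, 264 with normexp correction, 1993 with no filter on dim probes, 112 at 2-fold and 682 to 864 with a hairpin left out. Genes lower on average numbered 1935, 274 with normexp correction, 919 with dim signals raised to a floor, 629 with probes well above background on all arrays, 3368 with no filter, 574 at 2-fold and 1492 to 2920 with a hairpin left out, the most without shR-467. Genes higher with every hairpin numbered 135, and 66, 274 and 32 with normexp correction, no filter and 2-fold, and 247 to 327 with 1 hairpin fewer to pass. Genes lower with every hairpin numbered 309, and 80, 165, 102, 706 and 99 with normexp correction, raised dim signals, the filter on all arrays, no filter and 2-fold, and 589 to 1347 with 1 hairpin fewer. With quantile normalization the split on average was 706 higher and 1536 lower. Limma called 0 genes, 4 with normexp correction, and 0 to 2 with a hairpin left out. The causes were not tested, other than that 1 hairpin fewer makes a rule on every hairpin easier to pass. A change of filter also changes how many genes are counted. The planned block for slide and scan could not be fitted, since the 4 arrays had 1 slide and 1 scan in common. Dim signals limit FOSB and FOSL2 most. No paired analysis was possible because the mock group has 1 array.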
